A study of Glycine max with 12 samples.

Results

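The copper/zinc superoxide dismutase genes of soybean and the gene for their copper chaperone were followed in leaf RNA under saline-alkali stress. Genes were taken by the words of their deposited description ("superoxide dismutase [Cu-Zn]" and 3 spellings of the enzyme or of its chaperone) and were selected on their measured level, at least 1 FPKM in at least 3 of 12 libraries. FPKM, the deposited unit, is the number of sequenced fragments scaled by transcript length and by library size. Of 46446 genes, 5 met both conditions, and no gene with those words fell below the level. Each of the 5 was at or above 1 FPKM in 12 of 12 libraries, with a lowest single value of 10.4 FPKM, so none lay near the threshold. The chaperone itself, Glyma.05G055000, is described with a hyphen (Cu/Zn-superoxide dismutase copper chaperone) and was missed by the literal words. Glyma.03G242900 is described only as a superoxide dismutase. Both carry the KEGG orthology number K04565 of the copper/zinc enzyme, as do the 5, which makes 7 genes with that number in all. These 2 genes were taken in after their descriptions and values had been seen, and counts are given for the 5 and for the 7.

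All plants were of the cultivar HN95, with a wild-type genotype per the labels, and all stood in pots that had received 3 L of a mixed saline-alkali solution (320 mM sodium sulfate, 320 mM sodium bicarbonate, 40 mM sodium chloride and 40 mM sodium carbonate). There were 4 groups of 3 libraries. The control had the stress and no named spray, and the others had the stress and a foliar spray of nano-SiO2 at 200 mg/L, of melatonin (MT) at 300 µM, or of both at these doses. Leaves were taken at day 7 after the spray, and no unstressed group was analysed here. The libraries are called biological replicates, but no source ties them to separate plants or pots, so p-values measure a spread between samples that may be partly technical.

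Superoxide dismutases turn the superoxide radical, a by-product of photosynthesis and respiration, into hydrogen peroxide and oxygen. In the copper/zinc enzyme copper is the catalytic metal and zinc holds the site in shape, and plants keep forms of it in the chloroplast, the cytosol and the peroxisome. A dedicated chaperone hands copper to the enzyme. Chloroplasts can also hold an iron enzyme for the same reaction. In Arabidopsis, low copper lowers the mRNAs of copper/zinc enzymes and of the chaperone through the regulator SPL7 and the microRNA miR398, while the iron enzyme gene becomes active.

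Summed FPKM per library ran from 522120 to 559092, relative depth ranged from 0.848 to 1.27 around the mean, and absolute depth is unknown. Of 30 leaf photosynthesis genes searched as a check of the tissue, 28 were tested, and their summed level was 46498 to 74763 FPKM in control, 27587 to 46184 with nano-SiO2, 43838 to 62689 with MT and 48570 to 66878 with both. Control 1 held the highest sum and nano-SiO2 2 the lowest. The 6 seed and pod markers were near absent, with a sum of at most 0.3 FPKM in any library. Root and nodule markers were not absent. They summed to 368 to 481 FPKM in control, 354 to 375 with nano-SiO2, 305 to 399 with MT and 347 to 456 with both. Dividing cell markers were present too, at sums of 14.4 to 25.7 FPKM across all libraries. The source of these mRNAs was not tested.

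The chaperone fell with each single spray, most with MT, and its level with both sprays together lay between control and nano-SiO2. A pair of chloroplast-type enzyme genes at nearly the same level in control parted under MT: Glyma.11G192700 fell and Glyma.12G081300 gave no call. Glyma.03G242900 fell with MT as well. With both sprays together none of the 7 genes passed the test against control, where 1.37% of all tested genes did. At that share a set of 7 would often hold no call, so this does not show a return to control. Because these are bulk leaf samples, fewer cells that express a gene and less RNA of it per cell cannot be told apart.

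**Figure D1:**
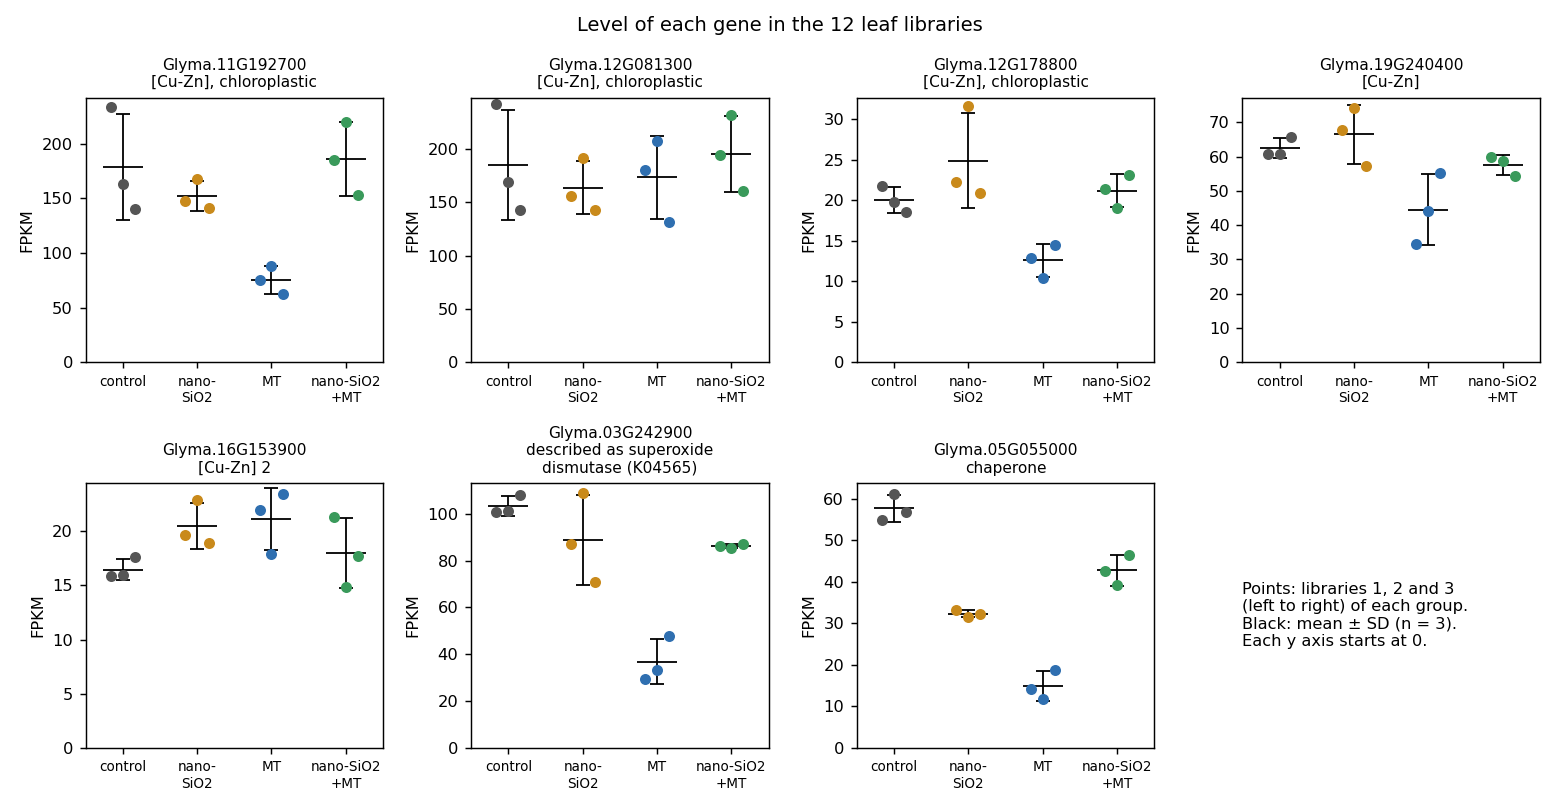
Levels of the copper/zinc superoxide dismutase genes and the chaperone in FPKM (linear axes from 0, one panel per gene), with a dot per library, the group mean as a horizontal dash and error bars of 1 SD over 3 libraries. The chaperone Glyma.05G055000, Glyma.03G242900 and Glyma.11G192700 have their 3 lowest libraries with MT, and the MT libraries of Glyma.12G081300 lie among those of the other groups.

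The chaperone gene Glyma.05G055000 lies on chromosome 5. Its level was 55.0, 61.3 and 56.9 FPKM in the control libraries, 33.2, 31.6 and 32.2 FPKM with nano-SiO2, 14.3, 11.6 and 18.7 FPKM with MT, and 42.6, 39.2 and 46.6 FPKM with both. No pair of groups overlapped: control was highest, then the combined spray, then nano-SiO2, then MT. The group means were 57.7 ± 3.21, 32.3 ± 0.83, 14.9 ± 3.55 and 42.8 ± 3.71 FPKM (SD, n = 3) in control, nano-SiO2, MT and the combined spray. Changes were fitted on log2(FPKM + 1) with limma over 28260 genes and adjusted by the Benjamini-Hochberg method, with a threshold of 0.05 on the adjusted p for a call. MT lowered the chaperone by this test, with a log2 change of -1.91 (SE 0.15, adjusted p = 1.19e-05), which left 0.258 of the control mean. With nano-SiO2 alone the log2 change was -0.82 (SE 0.15, adjusted p = 0.0313), which left 0.56 of the control mean. That call rested on every control and nano-SiO2 library: without any 1 of these 6 the adjusted p was 0.0782 to 0.171, without MT 1 it was 0.0602 and without combined library 1 it was 0.0562, while the log2 change stayed between -0.94 and -0.77 in all alternatives.

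Beside both sprays the chaperone stood at a log2 change of -0.43 from control (95% confidence interval -0.74 to -0.11, limma adjusted p = 0.22). All 3 combined libraries lay below all 3 controls, but the gene was not called. Against MT alone the combined spray was higher by 1.49 (95% interval 1.17 to 1.80, limma adjusted p = 0.000299), a 2.88-fold difference of the means. Against nano-SiO2 alone it lay 0.39 higher (0.07 to 0.71, limma adjusted p = 0.197), with no overlap and no call. The direct contrast of the single sprays put MT below nano-SiO2 by a log2 change of -1.10 (limma adjusted p = 0.00229). The interaction, taken as the MT difference beside nano-SiO2 less the MT difference without it, was 2.30 (SE 0.21, 95% interval 1.85 to 2.75, limma adjusted p = 0.000103).

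Among the enzymes described as chloroplastic, Glyma.11G192700 and Glyma.12G081300 were the most abundant. Over all 46446 genes their mean levels ranked 425th and 339th. Glyma.11G192700, on chromosome 11, was at 233, 163 and 140 FPKM in control, 148, 168 and 142 FPKM with nano-SiO2, 75.3, 88.0 and 62.3 FPKM with MT, and 185, 220.1 and 153 FPKM with both. The MT libraries lay below the other 9, and the other 3 groups overlapped each other. Its mean went from 179 ± 48.7 FPKM in control to 75.2 ± 12.9 FPKM with MT (SD, n = 3), 0.421 of control. The log2 change was -1.22 (SE 0.20, 95% interval -1.64 to -0.79, limma adjusted p = 0.00473). Neither nano-SiO2 alone (log2 change -0.20, limma adjusted p = 0.705) nor the combined spray (0.07, limma adjusted p = 0.94) gave a call against control.

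The combined spray was 2.47-fold above MT alone in Glyma.11G192700 (log2 1.29, 95% interval 0.87 to 1.72, limma adjusted p = 0.0118). The interaction was 1.49 (SE 0.28, 95% interval 0.89 to 2.09, limma adjusted p = 0.0339). This interaction was the least steady of the gene's calls: it passed in 8 of 20 alternative fits, and leaving out control 1 or 2, any nano-SiO2 library, MT 1 or 3, or combined library 1 or 2 moved the adjusted p to between 0.0589 and 0.093. The call against MT alone was lost without MT 1 or 3 or combined library 1 or 2 (adjusted p 0.0532 to 0.0679). Against nano-SiO2 the MT difference was -1.02 (limma adjusted p = 0.0176), lost without nano-SiO2 2 (0.0686) or MT 1 (0.071) and with median-ratio scaling (0.0966). The fall with MT against control held in 21 of 21.

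Glyma.12G081300, on chromosome 12, was at 242, 169 and 143 FPKM in control, 156, 191 and 143 FPKM with nano-SiO2, 180.3, 208 and 131 FPKM with MT, and 194, 231 and 160.1 FPKM with both. All 4 groups overlapped, with means between 163 and 195 FPKM. The MT difference was -0.08 on the log2 scale with a 95% interval of -0.56 to 0.39 (limma adjusted p = 0.913), an interval that does not reach the -1.22 estimated for Glyma.11G192700. Control 1 was the highest control library in both genes, as it was in summed photosynthesis markers.

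Taken within a library, the ratio of Glyma.11G192700 to Glyma.12G081300 varied less among the libraries of a group than either gene did. It was 0.964, 0.965 and 0.98 in control, 0.948, 0.879 and 0.99 with nano-SiO2, and 0.954, 0.952 and 0.954 with both. In the MT libraries it was 0.418, 0.424 and 0.474, a mean of 0.439 ± 0.031 (SD, n = 3). The 3 MT libraries lay well below the other 9, with no overlap. The ratio was singled out after the values were seen and is a description, since an exact two-sided permutation test of 3 against 3 libraries cannot go below 0.1. Close copies may compete for the same reads, and the rule by which the authors assigned such reads, like the strand setting, is not stated in the sources used here.

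**Figure D2:**
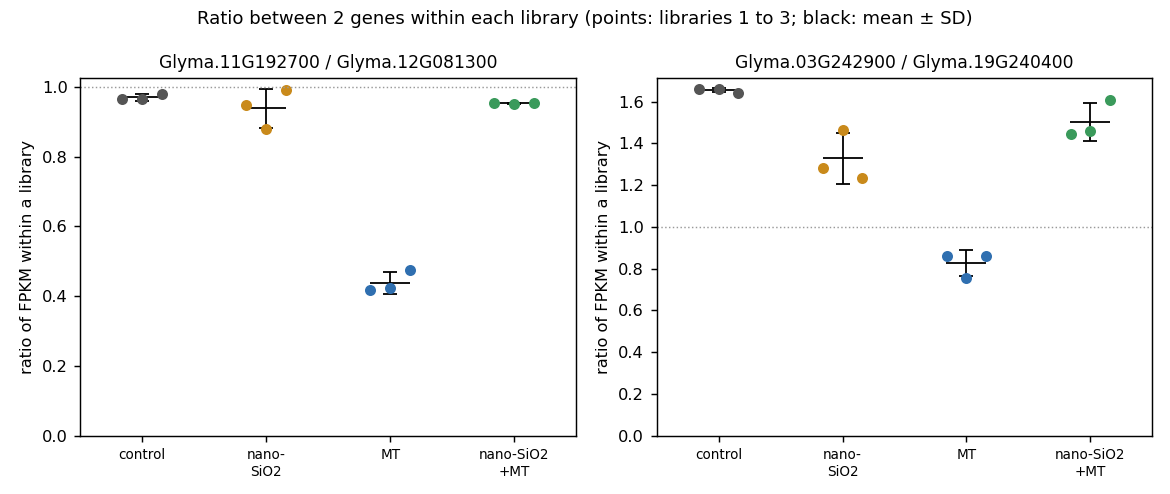
Within-library ratios of FPKM for the pair Glyma.11G192700 over Glyma.12G081300 and the pair Glyma.03G242900 over Glyma.19G240400 (linear axes from 0, a dot per library, a dash for the group mean, error bars of 1 SD over 3 libraries, a dotted line at equal levels). The first ratio lies between 0.879 and 0.99 in the 9 libraries without MT alone and between 0.418 and 0.474 with MT, and the second has its 3 lowest libraries with MT.

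The third chloroplastic description belongs to Glyma.12G178800, on chromosome 12, at a much lower level. It was at 21.8, 19.7 and 18.5 FPKM in control, 22.2, 31.5 and 20.9 FPKM with nano-SiO2, 12.8, 10.4 and 14.4 FPKM with MT, and 21.4, 19.03 and 23.1 FPKM with both. Its MT libraries lay below all others. MT lay below nano-SiO2 by the test (log2 change -0.92, SE 0.16, limma adjusted p = 0.0112), which left 0.505 of the nano-SiO2 mean. This call was lost without MT 2 (adjusted p = 0.0521) and with the compared groups alone (adjusted p = 0.0588). The difference from control just missed at -0.64 (95% interval -0.99 to -0.29, limma adjusted p = 0.0515), and several alternatives brought it under the threshold. The interaction was 0.43 (95% interval -0.06 to 0.93, limma adjusted p = 0.654).

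The 2 members with no compartment in their description behaved differently from each other in their values. Glyma.19G240400, on chromosome 19, was at 60.7, 60.8 and 65.8 FPKM in control, 67.9, 74.3 and 57.3 FPKM with nano-SiO2, 34.4, 44.1 and 55.2 FPKM with MT, and 59.9, 58.7 and 54.2 FPKM with both. The MT libraries lay below control and nano-SiO2, but MT 3 lay within the range of the combined spray. Its MT difference of -0.50 from control was not called (95% interval -0.84 to -0.16, limma adjusted p = 0.11). Without MT 3 it was called, at an adjusted p of 0.035.

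Glyma.16G153900, on chromosome 16 and described as superoxide dismutase [Cu-Zn] 2, was at 15.9, 15.96 and 17.6 FPKM in control and 21.97, 17.9 and 23.5 FPKM with MT. With nano-SiO2 it was at 19.7, 22.9 and 18.9 FPKM, and with both at 21.4, 14.9 and 17.7 FPKM. Control lay below both single sprays without overlap, the reverse of the chaperone's order. None of these differences was called: the MT difference was 0.33 (95% interval 0.02 to 0.65, limma adjusted p = 0.267) and that of nano-SiO2 was 0.30 (-0.02 to 0.61, limma adjusted p = 0.494).

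Glyma.03G242900, on chromosome 3, carries K04565 without naming its metal. It was at 100.6, 101 and 108 FPKM in control, 87.2, 109 and 70.7 FPKM with nano-SiO2, 29.6, 33.2 and 47.6 FPKM with MT, and 86.4, 85.5 and 87.1 FPKM with both. The MT libraries lay below the other 9, and nano-SiO2 overlapped control. MT lowered it to 0.356 of the control mean (log2 change -1.49, SE 0.18, limma adjusted p = 0.000561) and to 0.414 of the nano-SiO2 mean (log2 change -1.26, limma adjusted p = 0.00326). The combined spray was 2.35-fold above MT alone (log2 1.24, limma adjusted p = 0.00716), and the interaction was 1.47 (SE 0.25, 95% interval 0.93 to 2.02, limma adjusted p = 0.0172). The interaction was lost in 6 of the 20 alternative fits (adjusted p 0.0525 to 0.059), each without 1 library: control 2, control 3, nano-SiO2 1, MT 1, MT 2 or combined library 1. Its ratio to Glyma.19G240400 within a library was 1.64 to 1.66 in control, 1.23 to 1.47 with nano-SiO2, 0.753 to 0.862 with MT and 1.44 to 1.61 with both.

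**Figure D3:**
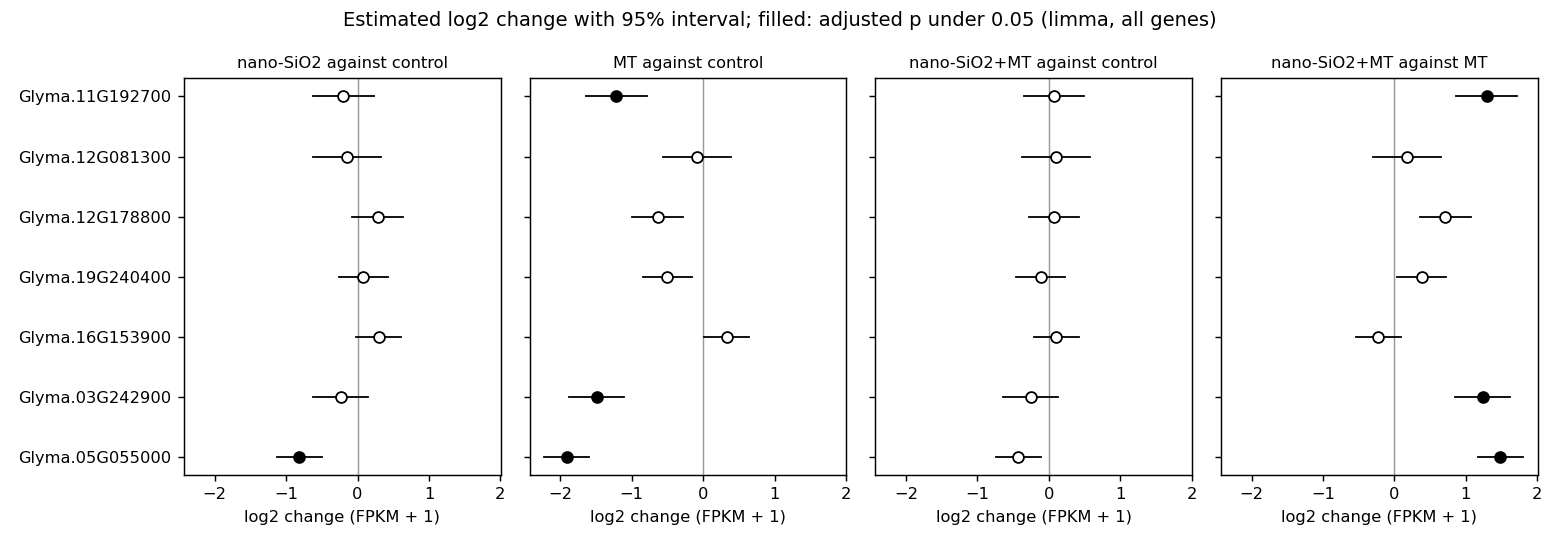
Fitted log2(FPKM + 1) differences of the 7 genes with 95% confidence intervals from limma. The panels show nano-SiO2, MT and the combined spray against control, and the combined spray against MT. Filled points passed an adjusted p of 0.05 over 28260 genes and open points did not. In MT against control 3 genes lie to the left of 0 as filled points, and in the combined spray against control all 7 points are open.

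The counts put these genes beside the whole transcriptome. For MT against control, 3.35% of tested genes were called and 1.69% were called lower, and 1 of the 5 members and 3 of the 7 K04565 genes were called lower. The median log2 change was -0.50 over the 5 members and -0.05 over all genes. For nano-SiO2 against control, 0.492% of tested genes were called and 0.103% were called lower. None of the 5 members was called by limma there, 0 had an unadjusted p under 0.05, and of the 7 the chaperone alone was called lower. The members' median was 0.08 and that of all genes 0.10.

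The combined spray gave no call among the 7 against control, where limma called 1.37% of tested genes, and none against nano-SiO2, where it called 1.53%. At such shares a set of 7 would often hold no call in either comparison. At an unadjusted p under 0.05, 0 of the 5 and 1 of the 7 passed in each, the chaperone both times. Against MT alone, 0.294% of tested genes were called and only 0.0672% were called higher, and 1 of the 5 and 3 of the 7 were called higher. The members' median there was 0.39, against -0.004 over all genes. For MT against nano-SiO2, 3.16% were called and 2.41% were called lower, and 2 of the 5 and 4 of the 7 were called lower. The interaction was called for 0.524% of tested genes and was positive in 0.12%, and it was called positive for 1 of the 5 and 3 of the 7.

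Separation of the 3 libraries of one group from the 3 of another was common across the transcriptome. With MT, 3 of the 5 members and 5 of the 7 genes lay wholly below control, as did 14% of tested genes, and Glyma.16G153900 lay wholly above it, as did 9.12%. With nano-SiO2 only the chaperone among the 7 lay wholly below control (3.78% of tested genes), and Glyma.16G153900 lay wholly above it (12.2%). With both sprays 1 of the 5 and 3 of the 7 lay wholly below control, beside 12.3% of tested genes. Against MT alone the combined spray lay wholly higher in 2 of the 5 and 4 of the 7 (4.02% of tested genes), and against nano-SiO2 in the chaperone among the 7 (3.46%). MT lay wholly below nano-SiO2 in 3 of the 5 and 5 of the 7, beside 20.7% of tested genes.

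An F test among the 4 groups called 4.12% of tested genes, 2 of the 5 members and 4 of the 7. The chaperone ranked 29th of 28260 by this test (limma adjusted p = 6.02e-05), Glyma.03G242900 ranked 108th (0.00143), Glyma.11G192700 ranked 244th (0.00663) and Glyma.12G178800 ranked 622nd (0.023). The call of Glyma.12G178800 was lost without control 2 (0.0556), MT 1 (0.0838) or MT 2 (0.101). Comparisons against one group share its libraries, so they are not independent of each other.

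In their order by level, Glyma.12G081300 and Glyma.11G192700 led in control with overlapping ranges, followed by Glyma.03G242900, then by Glyma.19G240400 and the chaperone with overlapping ranges, then by Glyma.12G178800 and Glyma.16G153900. With MT, Glyma.12G081300 stood clear of Glyma.11G192700. Next came Glyma.19G240400 and Glyma.03G242900, which overlapped, and then Glyma.16G153900, the chaperone and Glyma.12G178800, where neighbours overlapped. Glyma.16G153900 moved from the last place in control to above the chaperone in mean level.

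Summed over the 5 members and Glyma.03G242900, the enzyme mRNAs came to 493 to 674 FPKM in control, 452 to 597 with nano-SiO2, 334 to 401 with MT and 495 to 629 with both. The MT libraries lay below all others. Within that sum Glyma.12G081300 made up 32.3% ± 3.47 in control and 47.3% ± 6.95 with MT, while Glyma.11G192700 made up 31.3% ± 3.13 and 20.6% ± 1.74 (SD, n = 3). The chaperone's mRNA per 100 FPKM of these enzymes was 10.4 ± 1.96 in control, 6.35 ± 0.945 with nano-SiO2, 4.17 ± 1.35 with MT and 7.72 ± 1.60 with both. Thus this ratio with MT (2.90 to 5.58) and with nano-SiO2 (5.29 to 7.12) did not overlap that of control (8.16 to 11.6). The single sprays overlapped each other, and the combined spray (6.22 to 9.41) overlapped control.

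A gene of the iron enzyme, which does the same work in chloroplasts, rose in the groups where the chaperone fell. This gene, Glyma.20G196900, superoxide dismutase [Fe], was at 0.535, 0.301 and 0.473 FPKM in control, 26.02, 20.7 and 24.6 FPKM with nano-SiO2, 33.4, 26.1 and 40.3 FPKM with MT, and 5.27, 2.52 and 4.68 FPKM with both. Control lay lowest and both single sprays highest, with the combined spray between them and no overlap with either. It rose with MT (log2 4.56), with nano-SiO2 (log2 4.104) and with both (log2 1.80), at limma adjusted p-values of 1.43e-07, 4.06e-07 and 0.00106. The interaction was -6.86 (limma adjusted p = 1.48e-07), opposite in sign to the chaperone's. Of 4 tested genes on the iron enzyme list, this 1 was called in each comparison with control. The shares called over all tested genes were 0.492% with nano-SiO2, 3.35% with MT and 1.37% with both. The list's median with MT was -0.17: at an unadjusted p under 0.05 there were 3 of the 4, and the other two, Glyma.02G087700 (log2 -0.31, limma adjusted p = 0.259) and Glyma.20G050800 (log2 -0.48, limma adjusted p = 0.153), lay wholly below control and were not called. They are named after their values were seen. A further gene that the list's words missed, Glyma.10G193500 (iron-superoxide dismutase), was named after its values were seen. It was listed at 0, 0.069 and 0.0609 FPKM in control, and was at 3.01 to 5.40 FPKM with nano-SiO2, 4.77 to 6.16 FPKM with MT and 0.0797 to 0.629 FPKM with both.

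**Figure D4:**
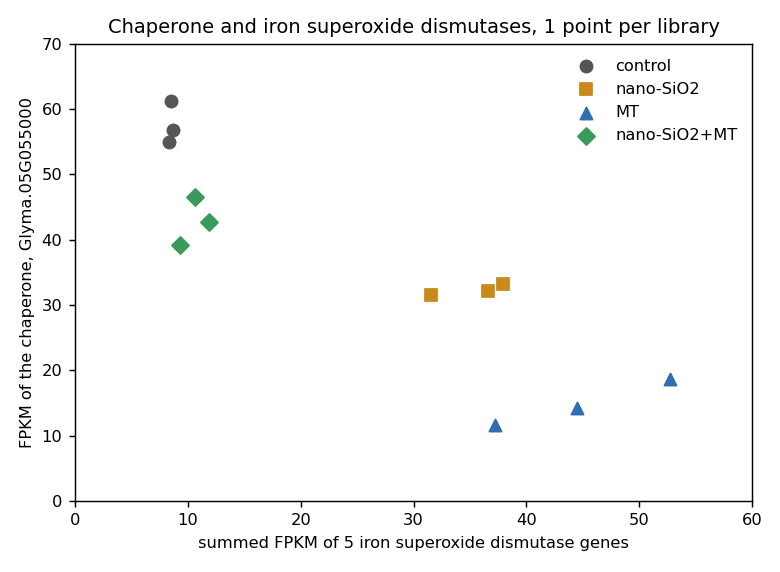
Chaperone Glyma.05G055000 in FPKM (vertical axis) against the summed FPKM of 5 iron superoxide dismutase genes (horizontal axis), both linear from 0, 1 point per library, coloured by group. The control points lie at the upper left (55.0 to 61.3 FPKM of chaperone), the MT points at the lower right (11.6 to 18.7 FPKM), and the other groups between them in chaperone level.

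The summed iron enzyme mRNA was 8.32 to 8.68 FPKM in control, 31.5 to 37.9 with nano-SiO2, 37.2 to 52.8 with MT and 9.33 to 11.8 with both. Shares were taken of the summed FPKM of 6 copper/zinc, 5 iron and 2 manganese enzyme genes. The KEGG number K04564 of the iron and manganese type marks 10 genes, and those not described as superoxide dismutases were left out. The iron share was 1.43% ± 0.243 in control, 6.14% ± 1.14 with nano-SiO2, 10.3% ± 2.34 with MT and 1.78% ± 0.338 with both (SD, n = 3). The copper/zinc share was 93.6%, 88.5%, 82.4% and 93.2% in the same order, so these mRNAs remained the bulk in every group. A manganese enzyme of mitochondria, Glyma.06G144500, had means of 15.5, 15.8, 17.2 and 16.3 FPKM and was not called. The words of the manganese list missed Glyma.04G221300 (MnSOD), named after its values were seen. It had means of 14.4, 14.7, 14.8 and 13.9 FPKM and was not called. These 2 genes made up 5.00%, 5.36%, 7.30% and 4.98% of the same summed FPKM, in the same order of groups.

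Of 18 tested copper transporters and pumps, limma called 1 higher with MT, where 1.66% of all tested genes were. It was Glyma.11G134700 (6.87 ± 0.604 to 11.9 ± 0.42 FPKM, log2 0.71, adjusted p = 0.0157). This call was lost without control 2 or 3 or MT 1 or 2 (adjusted p 0.0515 to 0.0827). Of 11 other copper chaperones, none was called by limma against control, with 2, 2 and 0 at an unadjusted p under 0.05 for nano-SiO2, MT and both. The most abundant was CCH, Glyma.02G160500, with means of 188, 257, 284 and 220 FPKM. Of 3 genes described like the Arabidopsis copper regulator SPL7, none was called and 0 had an unadjusted p under 0.05 against control. The highest, Glyma.13G213400, had means of 15.1, 17.8, 13.01 and 13.7 FPKM. Of all tested genes 0.492% were called with nano-SiO2, 3.35% with MT and 1.37% with both. Lists as short as the other chaperones and the SPL7-type genes would often hold no call at such shares.

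Among secreted copper enzymes, 6 of 18 tested laccases, which polymerise lignin in cell walls, were called lower with MT by limma and none higher, with a median log2 change of -0.99. Over all tested genes 1.69% were called lower with MT, at a median of -0.05. Laccase-12, Glyma.11G233400, was at 6.17, 6.26 and 5.49 FPKM in control, 0.746, 0.947 and 1.13 FPKM with MT, 1.55, 1.37 and 1.73 FPKM with nano-SiO2, and 2.22, 5.96 and 1.30 FPKM with both. Its MT difference was -1.85 (limma adjusted p = 0.00398), and the call with nano-SiO2 (-1.45, adjusted p = 0.0492) held in only 3 of 20 alternative fits, with an adjusted p of up to 0.484. Combined library 2 stood far above its 2 partners. Markers of xylem and secondary walls, a list without laccases, were also lower with MT: of 47 genes 21 were tested and 5 were called lower with MT (median -0.97, beside the same 1.69% of all genes), their summed level was 113 to 185 FPKM in control, 148 to 333 with nano-SiO2, 49.9 to 68.6 with MT and 58.8 to 166 with both, and none was at 0 in every library. Their part in the laccase result and in the MT calls of the superoxide dismutase genes was not tested.

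Of 14 copper oxidases tested, 2 were called lower with MT (1.69% of all tested genes) and 1 higher with nano-SiO2 (0.389%). An L-ascorbate oxidase homolog, Glyma.06G307100, went from 8.62 ± 0.425 FPKM in control to 2.51 ± 0.401 FPKM with MT (log2 -1.46, limma adjusted p = 0.00566). A copper amine oxidase, Glyma.01G062400, was at 3.59 ± 0.426 FPKM in control, 9.15 ± 1.19 with nano-SiO2 (log2 1.14, limma adjusted p = 0.00494) and 1.51 ± 0.464 with MT (log2 -0.88, limma adjusted p = 0.00839). The first call was lost without control 1 and nano-SiO2 2 together (adjusted p = 0.138), and the second without control 2 (adjusted p = 0.0522). The 11 small blue copper proteins and 2 plastocyanins gave no limma call against control, with 3, 3 and 2 of the former and 0 of the latter at an unadjusted p under 0.05 for nano-SiO2, MT and both. In the same order 0.492%, 3.35% and 1.37% of all tested genes were called, and lists this short would often hold none.

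The enzymes that remove the hydrogen peroxide made by superoxide dismutases gave no limma call against control in any group, among 4 catalases and 9 ascorbate peroxidases tested. Of all tested genes 0.492% were called with nano-SiO2, 3.35% with MT and 1.37% with both. Lists this short would often hold no call at such shares, so the lack of calls says little about these enzymes. At an unadjusted p under 0.05 there was 1 catalase, with the combined spray, and 1 ascorbate peroxidase, with MT. On the zinc side, limma called 4 of 23 zinc transporters and metallothioneins higher with MT (1.66% of all tested genes) and 2 with nano-SiO2 (0.389%). Of the 4 called with MT, 2 entered the tested set only because they reached 1 FPKM in the MT libraries, so that count supports nothing about the list, and the values of these 2 are given without a test. The zinc importer gene ZIP1, Glyma.20G063100, was at 0.258 ± 0.0693 FPKM in control and 1.74 ± 0.271 with MT. Zinc transporter 8, Glyma.13G004400, was listed at 0, 0.0609 and 0 FPKM in control and was at 2.55, 1.83 and 1.19 FPKM with MT. With both sprays ZIP1 had a mean of 0.271 FPKM and zinc transporter 8 was listed at 0.0155, 0.024 and 0 FPKM.

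Across the 12 libraries the genes did not form 1 pattern. Pearson correlations of log2(FPKM + 1) are given as a description, over libraries that share their groups. The chaperone had 0.924 with Glyma.03G242900, 0.806 with Glyma.11G192700, 0.707 with Glyma.12G178800 and 0.690 with Glyma.19G240400. All pairs among these genes and the chaperone were positive, from 0.627 to 0.924. The chaperone had 0.035 with Glyma.12G081300 and -0.522 with Glyma.16G153900. Glyma.16G153900 ran against Glyma.11G192700 (-0.588). Most like the chaperone among the tested genes without K04565 was Glyma.16G168200, a vacuolar iron transporter homolog (0.951, group means 9.74, 7.00, 4.44 and 9.65 FPKM). Glyma.20G217400 and Glyma.10G172900, both YSL1 metal-chelate transporters (0.933 and 0.923), and the ferritin-1 genes Glyma.07G155200 and Glyma.18G205800 (0.925 and 0.909) completed the first 5. Ferritin stores iron, and Glyma.07G155200 had means of 46.3, 11.4, 5.76 and 26.1 FPKM in control, nano-SiO2, MT and the combined spray.

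The genes most opposite to the chaperone were the uncharacterized Glyma.05G011200 (-0.981, means 10.6, 28.4, 104 and 14.0 FPKM), the tyrosine-protein phosphatase Glyma.02G267900 (-0.966) and Glyma.19G098500, a hypothetical protein (-0.955). For Glyma.11G192700 the nearest were 2 chloroplast carbonic anhydrase genes, which speed the exchange of carbon dioxide and bicarbonate. These were Glyma.05G007100 (0.968, means 2979, 2575, 1399 and 3078 FPKM) and Glyma.19G007700 (0.954). The other 3 were Glyma.02G252500 (0.914), the ribosomal protein gene Glyma.09G103400 (0.892) and Glyma.11G107100 (0.885). The most opposite were a villin gene, Glyma.13G098600 (-0.931), a gibberellin 2-beta-dioxygenase gene, Glyma.12G213700 (-0.929), and a mediator subunit gene, Glyma.02G157800 (-0.914).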

How the data were processed

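Leaf RNA of 12 libraries in 4 groups of 3 was analysed from 1 table. The values are FPKM per gene and library that the authors deposited, per the file headers. DESeq2 1.34.0 and R 4.1.2 are listed in the submitters' processing notes. No source used here gives the aligner, the counter, the strand setting or the treatment of reads shared by close copies. Genes are identified in the annotation Wm82.a4.v1, and chromosomes are read from the identifiers. Columns with p-values and q-values in the authors' deposited table name no comparison and were not used.

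Values were transformed as log2(FPKM + 1), which understates changes of low genes. Tests took the 28260 of 46446 genes that reached 1 FPKM in 3 libraries or more. A linear model with a mean per group over all 12 libraries was fitted with limma 3.58.1 (lmFit, eBayes with trend and robust settings) in R 4.3.3, with two-sided tests and Benjamini-Hochberg adjustment over all tested genes for each comparison. The design foresaw tests on FPKM, and the workflow was tested on simulated data. All members are named. Of related lists, drawn by description words, the 2 members of highest level and up to 2 called by the F test with the smallest p could be named. So could the 5 genes most like and 3 most opposite to the chaperone and to the enzyme member with the smallest F test p. The 7 K04565 genes were left out of that ranking. The members, the lists and the comparisons were chosen with earlier results of these data known. Intervals are 95%, and since absolute depth is unknown no counting error is given. Alternatives were a pseudocount of 0.1, other filters (none, or a mean of at least 5 FPKM), median-ratio scaling, quantile normalization, a replicate block, each library left out, control 1 and nano-SiO2 2 left out together, the compared groups alone, and eBayes without trend and robust settings. Counts over the 7 K04565 genes and the repeats for related genes were added after seeing the data. No sequence was used.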

Additional observations from a re-analysis of the deposited data

Results flagged for a closer look

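For 3 of the 7 genes the MT difference was not the same with and without nano-SiO2, by the limma interaction test. Adjustment was by the Benjamini-Hochberg method over 28260 genes. Of the 5 members 1 was called, beside 0.524% of all tested genes called and 0.12% called positive. With 1 library left out, the calls ranged from 0 to 1 of the 5 and from 1 to 3 of the 7. In the chaperone Glyma.05G055000 the 2 differences were 2.30 apart on the log2 scale: MT alone stood at -1.91 from control, and the combined spray at 0.39 from nano-SiO2 alone. In Glyma.11G192700 they were 1.49 apart, with -1.22 and 0.27 for the same contrasts, and in Glyma.03G242900 they were 1.47 apart, with -1.49 and -0.02. With 3 libraries a group, no test for a single outlying library was made.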

How the results depend on the processing

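Over 21 alternatives (20 for the interaction) no difference of the 7 genes changed direction among called values; of the repeated tests of these genes, 975 kept their side of the threshold, 37 lost a call and 10 gained one. The chaperone's falls with MT and its interaction passed in all, as did the MT calls of Glyma.11G192700 and Glyma.03G242900 against control. The chaperone's nano-SiO2 call passed in 11 of 21 (adjusted p 0.00826 to 0.251).

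Members called in MT against control were 1 in the reported fit and 2 with a pseudocount of 0.1, a mean of at least 5 FPKM, quantile normalization or the compared groups alone, where Glyma.12G178800 was added (adjusted p 0.0419 to 0.0492). Members called in MT against nano-SiO2 were 1, not 2, with median-ratio scaling or the compared groups alone. Members called in the interaction were 0, not 1, without the filter, with median-ratio scaling, or without control 1 and nano-SiO2 2. The 7 genes called in nano-SiO2 against control were 0, not 1, without the filter or without control 1 and nano-SiO2 2. The cause was not tested.

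With 1 library left out, members called ranged from 1 to 3 in MT against control, 1 to 3 in MT against nano-SiO2, 0 to 2 in the combined spray against MT, 0 to 1 in the interaction and 1 to 3 in the F test. Over the 7 genes these ranges were 3 to 5, 3 to 5, 2 to 4, 1 to 3 and 3 to 5, and 0 to 1 for nano-SiO2 against control. In the 2 other comparisons 0 were called throughout. The fits pooled the spread over groups. Calls among all genes then ranged from 44 to 172 for nano-SiO2 against control (139 reported), 361 to 1098 for MT against control (948), 61 to 462 for the combined spray against control (386), 239 to 977 for MT against nano-SiO2 (893), 105 to 535 for the combined spray against nano-SiO2 (432), 49 to 98 for it against MT (83), 89 to 213 for the interaction (148) and 488 to 1084 for the F test (1164).

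The labels do not say whether same-numbered libraries were paired. Correlations between libraries, taken after each gene's group mean was subtracted, did not settle it. Over all groups 9 of 18 same-numbered pairs had a correlation over 0.1 (range -0.34 to 0.527), and 6 of 12 libraries correlated best with their own number. Between MT and the combined spray all 3 pairs were over 0.1 (0.141, 0.384 and 0.355), and there the block changed no call of the 7 genes. With the replicate block, MT against control still called 1 member and 3 of the 7, and 1169 genes in all against 948; MT against nano-SiO2 called 1578 genes against 893, and the combined spray against nano-SiO2 789 against 432.

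Median-ratio scaling moved the all-gene median in MT against nano-SiO2 from -0.14 to 0.008, in the combined spray against nano-SiO2 from -0.15 to 0.003 and in the interaction from -0.10 to 0.0002. The share of called genes that were higher then went from 49.6% to 59.6% in MT against control from 23.7% to 54.8% in MT against nano-SiO2 (50.2% with quantile normalization), from 53.4% to 65.3% in the combined spray against control, and from 20.1% to 46.0% in the combined spray against nano-SiO2 (45.1% with quantile normalization). Depth, known only in relative terms, limits what can be said of genes near 0.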
